A study of Mus musculus with 15 samples.

Results

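Expression of 10 genes of the naive pluripotency network (Klf2, Klf4, Klf5, Esrrb, Tfcp2l1, Tbx3, Prdm14, Nr0b1, Tcl1 and Zfp42) was compared across 5 mouse embryonic stem (ES) cell lines. The members are every probe set of the array that is annotated to any of these genes: 21 of 45101 probe sets and 10 of 18193 genes. All 10 genes were measured well enough to be tested, each through its brightest probe set, and 17 of the 21 probe sets passed the filter on low values. Each line was hybridised to 3 Affymetrix mouse expression arrays, which gave 15 arrays. NmB6D2 (NmB6D2-SNU-1) is a fertilised line from naturally mated C57BL6 females and DBA2 males. R1 is a purchased fertilised line whose parents were of the substrains 129X1/SvJ and 129S1/SvImJ. OpB6D2 (OpB6D2-SNU-1) is parthenogenetic, that is, it came from ovulated oocytes of B6D2F1 mice (C57BL6 mother, DBA2 father) that were activated without sperm. FpB6D2 (FpB6D2-SNU2) and FpB6CBA (FpB6CBA-SNU8) are also parthenogenetic, from oocytes grown in vitro in cultured preantral follicles of 2-week-old B6D2F1 and B6CBAF1 (C57BL6 mother, CBA/Ca father) females. No line carried a transgene or treatment that the labels name. Each line is a single derivation, and FpB6CBA and R1 are each the sole line of their strain, so line, strain and derivation cannot be told apart. The labels do not say whether the 3 arrays of a line came from separate cultures, so the p-values measure only the spread between these arrays, which may be technical.

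Naive pluripotency is the state of the preimplantation epiblast, which mouse ES cells keep in culture. A web of transcription factors around Pou5f1, Sox2 and Nanog holds it, and the genes studied here form the outer part of that web. Klf4 and Tfcp2l1 are known to respond to LIF through STAT3, Tbx3 and Tcl1 are linked to PI3K-AKT signalling, and Esrrb and Tfcp2l1 are known to be released from repression when Wnt signalling blocks GSK3. These genes are shut down on exit from the naive state, and some of them differ from cell to cell within ES cultures. Arrays of bulk RNA cannot tell fewer expressing cells from less RNA per cell.

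All values are log2 intensities, so 1 unit is a 2-fold difference, and levels are compared only within a probe set, never between genes. A gene was called in a comparison of a pair of lines when the limma adjusted p (Benjamini-Hochberg over all 12813 genes tested) was under 0.05 and the difference was at least 2-fold. The ES cell markers Pou5f1, Sox2, Nanog and Sall4 were above the filter on low values in every line. Spike-in controls set FpB6D2 and FpB6CBA apart: the hybridisation controls averaged 9.74 and 9.93 there and 9.23 to 9.34 in the other lines. The poly-A controls averaged 8.38 in FpB6D2, 9.04 in FpB6CBA and 8.02 to 8.17 elsewhere. The actin 3′ signal minus the 5′ signal was 0.63 and 0.70 in these lines and 0.51 to 0.53 in the others. The same difference for Gapdh did not follow this split, at -0.05 in FpB6D2, 0.04 in FpB6CBA and 0.06 to 0.08 elsewhere. The part of these array differences in the results was not tested.

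All 10 genes differed among the 5 lines by the moderated F test (adjusted p between 1.1e-13 for Tcl1 and 4.2e-06 for Klf5), where 87.0% of all genes tested did so. The distance between the highest and the lowest line mean had a median of 2.22 over the 10 genes and 0.74 over all genes tested, and it reached 1 unit in 8 of the 10 genes and in 32.9% of all genes. Of the 100 combinations of a gene and a pair of lines, 36 were called, against 10% over all genes tested.

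The 10 genes did not share a single order of lines. In every gene except Tcl1 and Zfp42, NmB6D2 and FpB6CBA held the lowest and next-lowest means, in either order. The share of all genes with these lines lowest and next lowest was not computed. Klf2, Esrrb, Tbx3, Prdm14 and Tcl1 had their lowest mean in NmB6D2, and Klf4, Klf5, Tfcp2l1, Nr0b1 and Zfp42 had theirs in FpB6CBA. The highest mean lay in FpB6D2 for 5 genes (Klf4, Klf5, Tbx3, Nr0b1 and Tcl1), in R1 for 4 (Klf2, Esrrb, Tfcp2l1 and Zfp42) and in OpB6D2 for Prdm14. Of all genes tested, 15.1% had their lowest mean in NmB6D2, 21.1% in FpB6CBA and 22.7% their highest in FpB6D2.

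**Figure D1:**
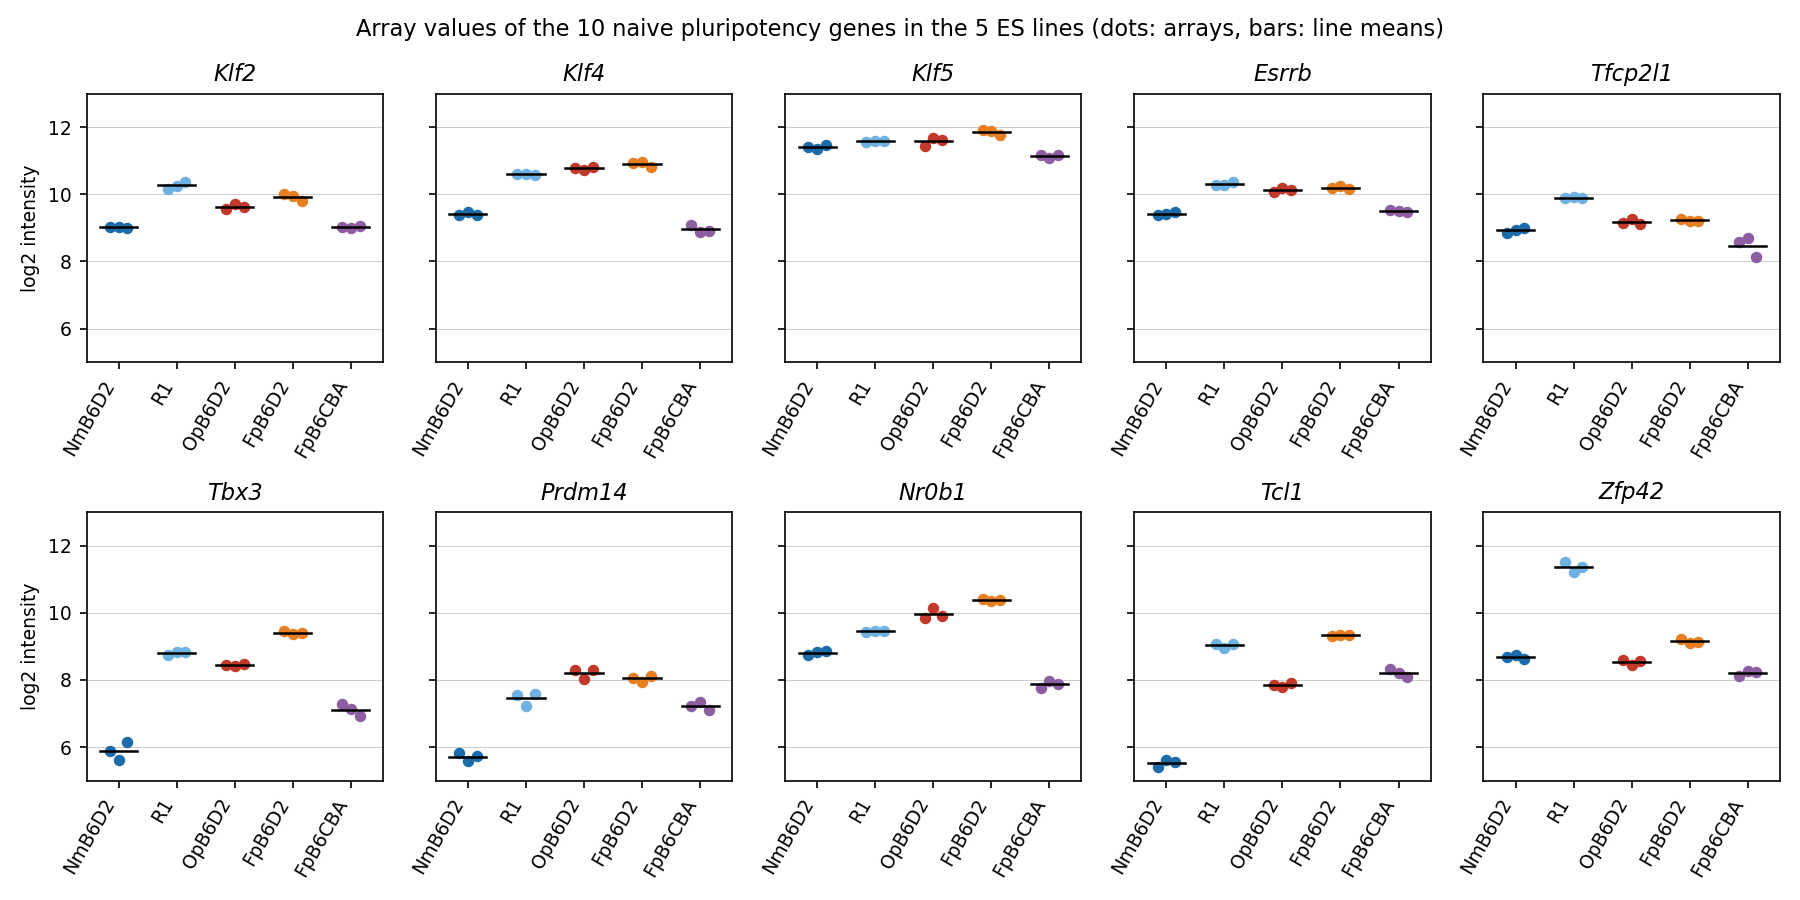
Log2 intensity (y axis) of the 10 genes on each of the 3 arrays (dots) of the 5 ES lines (x axis), with the line mean as a bar. Tcl1, Tbx3 and Prdm14 lie between 5.41 and 6.15 on all 3 NmB6D2 arrays, and Zfp42 lies at 11.22 to 11.51 on the R1 arrays and at 9.21 or below on every other array.

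RefSeq promoters (GRCm38.p6) were listed for 7 of the 10 genes, with 8 entries because Esrrb had 2; Klf5, Tbx3 and Prdm14 were not among them. The 250 bases before each start were searched on both strands for 4 motifs of the network: a STAT site (TTCNNNGAA), an Esrrb response element (AAGGTCA), a KLF site (CCNCNCCC) and the octamer bound by Pou5f1 (ATGCAAAT). Overlapping matches were counted separately, and KLF matches overlap in runs of C or G. The KLF letters stood in the promoters of 6 of the 7 genes, and in 45.9% of all 32851 promoters in the table. The octamer stood only before Zfp42 among the 7, and in 1.6% of all promoters. A STAT match was found in 1 Esrrb entry (7.02% of all promoters), and no Esrrb element was found in any of the 8 windows (4.08% of all). A match describes letters and is not evidence of binding, and the absence of a match says only that these letters are not in this window.

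The stretches below show these letters before Zfp42, the gene that stood apart in R1, and before Klf2, Klf4, Tfcp2l1 and Tcl1, whose promoters hold the KLF letters. They run 5′ to 3′ on the strand of the gene, and capitals mark the octamer in Zfp42 and the KLF matches in the others. The Zfp42 octamer lies 186 to 179 bases before the start and reads on the opposite strand of the gene.
Zfp42, chr8:43307148-43307235, minus strand: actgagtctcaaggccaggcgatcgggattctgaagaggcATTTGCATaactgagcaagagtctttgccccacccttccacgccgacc
Klf2, chr8:72318812-72318893, plus strand: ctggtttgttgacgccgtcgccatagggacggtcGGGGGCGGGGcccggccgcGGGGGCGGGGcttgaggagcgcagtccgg
Klf4, chr4:55532647-55532725, minus strand: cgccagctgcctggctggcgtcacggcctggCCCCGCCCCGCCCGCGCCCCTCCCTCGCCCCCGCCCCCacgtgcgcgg
Tfcp2l1, chr1:118627844-118627931, plus strand: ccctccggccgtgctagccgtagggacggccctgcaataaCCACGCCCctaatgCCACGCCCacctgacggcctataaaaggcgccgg
Tcl1, chr12:105222775-105222862, minus strand: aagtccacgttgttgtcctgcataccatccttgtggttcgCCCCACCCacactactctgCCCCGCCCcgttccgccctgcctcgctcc
The whole 250-base windows held 9 KLF matches for Klf4, 8 and 1 for the Esrrb entries, 4 for Klf2, 3 for Zfp42, 2 each for Tfcp2l1 and Tcl1, and 0 for Nr0b1. GC content was 74% for Klf4 and 71.2% for Klf2, above the median of 52.4% over all promoters, and 57.2% for Nr0b1.

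Klf2, Klf4 and Klf5 are zinc-finger factors of the Krüppel-like family that share a DNA motif and can replace each other in ES cells in part. Klf4 was high in 3 lines and low in 2. On the arrays it read 10.57, 10.61 and 10.61 in R1, 10.73, 10.79 and 10.80 in OpB6D2 and 10.81, 10.93 and 10.97 in FpB6D2. It read 9.37, 9.37 and 9.46 in NmB6D2 and 8.88, 8.90 and 9.08 in FpB6CBA. The high and the low lines do not overlap on any array. Klf4 in FpB6CBA was 3.87-fold below FpB6D2 (log2 difference -1.95 ± 0.06 SE, limma adjusted p = 1.3e-11) and 3.53-fold below OpB6D2. FpB6D2 and OpB6D2 did not differ past the threshold in Klf4 (0.13 ± 0.06, adjusted p = 0.096).

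Klf2, whose maintenance is tied to low ERK activity, had another order, with R1 first. Its arrays read 10.17, 10.26 and 10.37 in R1, 9.80, 9.95 and 10 in FpB6D2 and 9.56, 9.63 and 9.71 in OpB6D2. They read 9, 9.04 and 9.06 in FpB6CBA and 8.99, 9.03 and 9.03 in NmB6D2, and these 2 lines overlap (difference 0.02 ± 0.07, adjusted p = 0.86). R1 was called higher than NmB6D2 (2.38-fold, adjusted p = 1.1e-09) and than FpB6CBA (2.36-fold), and no other pair was called.

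Klf5, which is also needed in the blastocyst for the trophectoderm, was not called between any pair of lines. Its line means ran from 11.14 ± 0.056 (SD, n = 3) in FpB6CBA to 11.85 in FpB6D2. The largest difference was therefore 1.63-fold (log2 0.70 ± 0.07 SE, limma adjusted p = 7.1e-07), past the test but under the 2-fold minimum. OpB6D2 and R1 could not be ordered (11.59 and 11.58, adjusted p = 0.98).

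Esrrb, an orphan nuclear receptor that works beside Nanog, was likewise never called, yet on its brightest probe set the lines fell into a high and a low group. R1 (10.27 to 10.36), FpB6D2 (10.16 to 10.24) and OpB6D2 (10.06 to 10.20) lay above FpB6CBA (9.47 to 9.54) and NmB6D2 (9.38 to 9.47). The widest difference was R1 over NmB6D2, 0.89 ± 0.05 or 1.85-fold (limma adjusted p = 4.2e-09). Within each group no neighbouring lines differed past the threshold: adjusted p was 0.07 for R1 against FpB6D2, 0.37 for FpB6D2 against OpB6D2 and 0.26 for FpB6CBA against NmB6D2.

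Tfcp2l1, a factor of the grainyhead family downstream of LIF, was highest in R1 and most scattered in FpB6CBA. It read 9.88, 9.89 and 9.92 in R1 and 8.14, 8.57 and 8.71 in FpB6CBA, where a single array accounts for most of the spread. R1 was called 2.69-fold above FpB6CBA (1.43 ± 0.11, limma adjusted p = 3.1e-08), a call lost when the probe sets of Tfcp2l1, of which the others lay below the filter, were averaged (0.42). The NmB6D2 arrays lay at 8.84 to 9, below those of OpB6D2 (9.11 to 9.27) and FpB6D2 (9.20 to 9.25). R1 missed the fold minimum narrowly against NmB6D2 (0.96 ± 0.11, 1.95-fold).

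Nr0b1 (Dax1) is an X-linked nuclear receptor that lacks a usual DNA-binding domain and binds other factors of the network. Its arrays read 10.35, 10.37 and 10.41 in FpB6D2, 9.83, 9.90 and 10.13 in OpB6D2, and 9.43, 9.47 and 9.47 in R1. They read 8.75, 8.82 and 8.85 in NmB6D2 and 7.76, 7.89 and 7.98 in FpB6CBA. All 5 lines were separated, and each neighbouring pair in this order differed past the adjusted p. FpB6CBA was 5.66-fold below FpB6D2 (-2.5 ± 0.08 SE, limma adjusted p = 6.5e-12) and 4.22-fold below OpB6D2. Against NmB6D2, OpB6D2 was 2.22-fold and FpB6D2 2.97-fold higher, and FpB6CBA was 1.91-fold lower (-0.93), which is under the fold minimum.

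The median X-linked gene lay above NmB6D2 in OpB6D2 and FpB6D2, where Nr0b1 was called higher. The median difference from NmB6D2 over 414 X-linked genes was 0.50 in OpB6D2, 0.44 in FpB6D2, -0.01 in FpB6CBA and 0.04 in R1. Over the 12347 autosomal genes these medians lay between -0.04 and 0.02. FpB6CBA was below both OpB6D2 and FpB6D2 by a median of -0.47 over X-linked genes. The difference of Nr0b1 stood at percentile 87.2 of the X-linked genes for OpB6D2 and 92.5 for FpB6D2 against NmB6D2. It stood at percentile 1.7 for FpB6CBA against OpB6D2 and 1.2 against FpB6D2. Against NmB6D2, the difference of Nr0b1 in FpB6CBA (-0.93) stood at percentile 4.3 and that in R1 (0.65) at 81.4, where the X-linked median was near 0. The Y-linked gene Eif2s3y averaged 8.61 in NmB6D2 and 7.99 in R1 and 2.73 to 3.35, below the filter, in the parthenogenetic lines. Uty, also Y-linked, was dimmer with the same split (4.12 and 4.23, against 2.97 to 3.32). A further Y-linked gene, Kdm5d, was below the filter in every line (2.92 to 3.24), and Xist ran from 4.54 to 4.91. Y-linked signal and mode of origin therefore cannot be told apart in comparisons of parthenogenetic with fertilised lines. The X-linked median did not follow that split, since FpB6CBA lay near NmB6D2 and R1. The part of the chromosome in the difference of Nr0b1 was not tested.

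Tbx3, a T-box factor, had the second widest range of the 10 genes, at percentile 99 of all genes tested. Its arrays read 9.36, 9.41 and 9.45 in FpB6D2, 8.75, 8.83 and 8.84 in R1, and 8.42, 8.44 and 8.47 in OpB6D2. FpB6CBA read 6.92, 7.13 and 7.27, and NmB6D2 read 5.63, 5.87 and 6.15. No lines overlapped, and the spread within NmB6D2 was the widest (SD 0.26). Tbx3 was 11.5-fold higher in FpB6D2 than in NmB6D2 (3.52 ± 0.11 SE, limma adjusted p = 1e-11), 7.6-fold higher in R1, 5.9-fold higher in OpB6D2 and 2.34-fold higher in FpB6CBA. It was 4.92-fold lower in FpB6CBA than in FpB6D2. When the Tbx3 probe sets were averaged, 3 calls of FpB6CBA fell under 2-fold: against NmB6D2 (0.69), against OpB6D2 (-0.57) and of R1 against FpB6CBA (0.75). The dim probe set 1439567_at gave -0.12 for FpB6CBA against NmB6D2 (limma adjusted p = 0.52).

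Tcl1, a small protein that binds AKT and raises its activity and is counted with the network though it is no DNA-binding factor, had the widest range. Its arrays read 9.30, 9.35 and 9.35 in FpB6D2 and 8.95, 9.06 and 9.08 in R1. They read 8.10, 8.21 and 8.33 in FpB6CBA, 7.78, 7.85 and 7.92 in OpB6D2, and 5.41, 5.55 and 5.62 in NmB6D2. NmB6D2 stood at least 2 units below every other array. Against NmB6D2, Tcl1 was 14-fold higher in FpB6D2 (3.81 ± 0.07 SE, limma adjusted p = 8.5e-14), 11.4-fold in R1, 6.43-fold in FpB6CBA and 5.01-fold in OpB6D2. It was the sole member called between the B6D2F1 parthenogenetic lines, 2.79-fold higher in FpB6D2 than in OpB6D2 (adjusted p = 3.4e-09).

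Prdm14, a PR-domain protein that represses DNA methyltransferase and FGF receptor genes in ES cells, was low in NmB6D2 alone. It read 5.59, 5.73 and 5.84 there, and 7.10 or more on all 12 arrays of the other lines. OpB6D2 (8.04, 8.29 and 8.31) and FpB6D2 (7.95, 8.06 and 8.12) overlapped, as did R1 (7.23, 7.56 and 7.57) and FpB6CBA (7.10, 7.22 and 7.33). The differences from NmB6D2 were 5.63-fold in OpB6D2 (2.49 ± 0.11 SE, limma adjusted p = 3.4e-10), 5-fold in FpB6D2, 3.33-fold in R1 and 2.82-fold in FpB6CBA. FpB6CBA was 1.99-fold below OpB6D2, at the edge of the fold minimum. It was called without OpB6D2 replicate 4 (-1.08), without FpB6CBA replicate 2 (-1.05) and under median centring (-1.01).

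Zfp42 (Rex1), a zinc-finger gene used as a reporter of the naive state, was high in R1 alone. It read 11.22, 11.35 and 11.51 in R1. FpB6D2 read 9.10, 9.14 and 9.21, NmB6D2 8.63, 8.69 and 8.75, OpB6D2 8.45, 8.56 and 8.58, and FpB6CBA 8.12, 8.25 and 8.28. R1 was 6.36-fold above NmB6D2 (2.67 ± 0.07 SE, limma adjusted p = 1.7e-12), 7.13-fold above OpB6D2, 4.63-fold above FpB6D2 and 8.83-fold above FpB6CBA. No pair of the other 4 lines was called, and NmB6D2 and OpB6D2 did not differ past the threshold (adjusted p = 0.082).

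**Figure D2:**
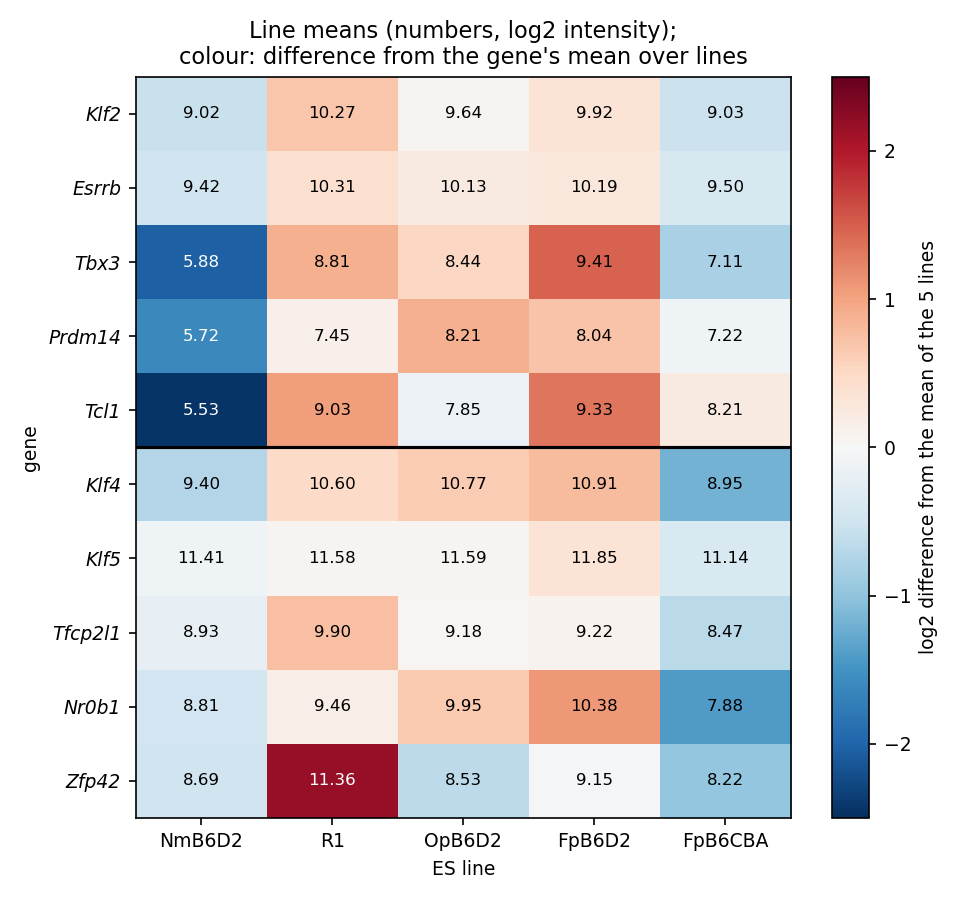
Line means in log2 intensity (numbers) of the 10 genes (rows) in the 5 ES lines (columns); colour gives the difference of a line from the mean of the 5 lines for that gene, and the black line parts genes lowest in NmB6D2 (above) from genes lowest in FpB6CBA (below). Tcl1, Tbx3 and Prdm14 are darkest blue in NmB6D2, and Zfp42 is darkest red in R1.

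The first group of comparisons set each line against NmB6D2, and all 4 share its arrays. In OpB6D2, 5 of the 10 genes were called higher (Klf4, Tbx3, Prdm14, Nr0b1 and Tcl1) and 0 lower, where 3.24% of all genes tested were called higher and 2.60% lower. In FpB6D2 those 5 genes were called higher and 0 lower (5.22% and 5.53% of all genes). The median difference over the 10 genes was 0.93 and 1.2, and over all genes 0.00 and 0.02.

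FpB6CBA, the third parthenogenetic line, moved in both directions against NmB6D2. Tbx3, Prdm14 and Tcl1 were called higher and 0 genes lower (2.57% and 1.63% of all genes). Klf4 (-0.45), Klf5 (-0.27), Tfcp2l1 (-0.46), Nr0b1 (-0.93) and Zfp42 (-0.47) were lower past the adjusted p but under 2-fold, and the median over the 10 genes was -0.13. R1, the other fertilised line, was higher in 6 (Klf2, Klf4, Tbx3, Prdm14, Tcl1 and Zfp42) and lower in 0, where 7.39% and 5.49% of all genes were called. Its median was 1.23.

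**Figure D3:**
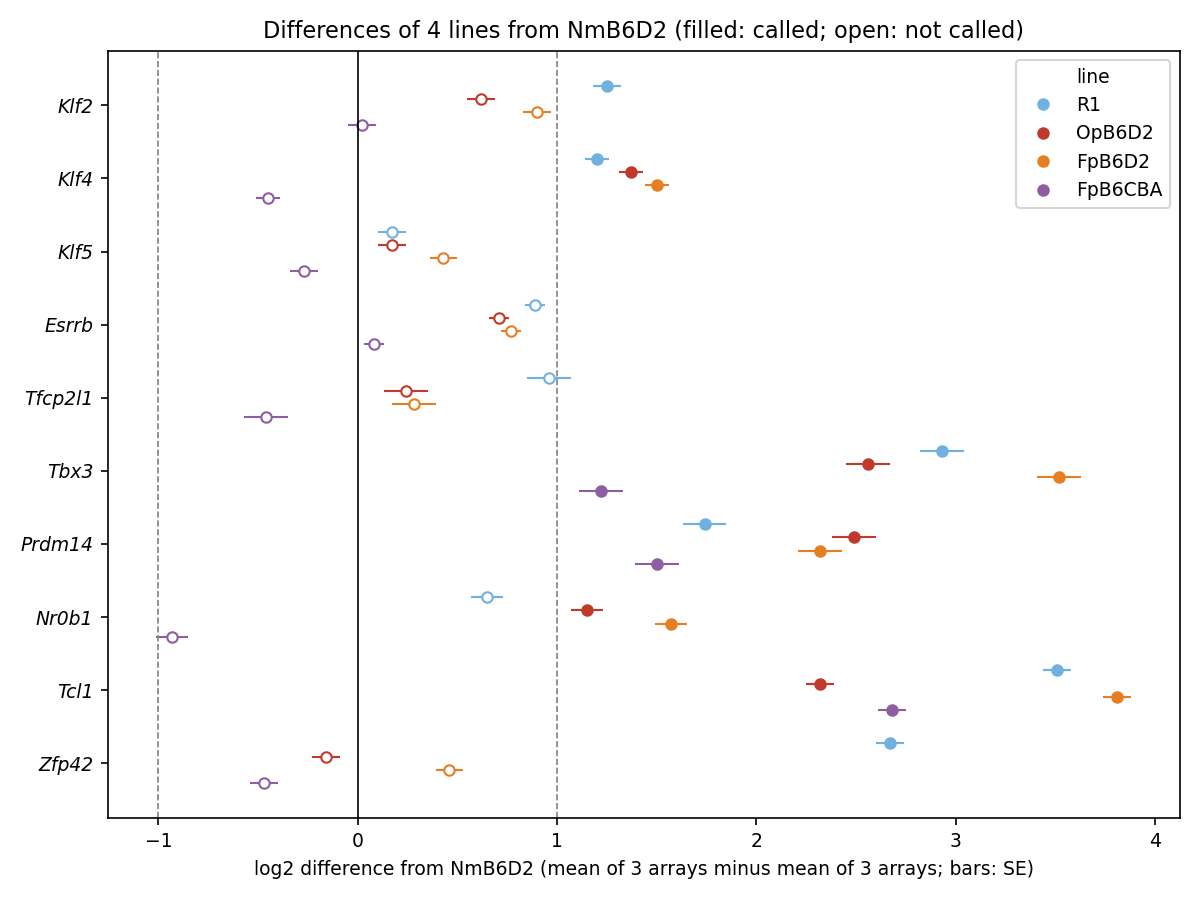
Log2 difference from NmB6D2 (x axis, with SE of the fit) for the 10 genes (y axis) in R1, OpB6D2, FpB6D2 and FpB6CBA; filled points were called, open points were not, and dashed lines mark 2-fold. Tbx3, Prdm14 and Tcl1 are filled in all 4 lines, whereas FpB6CBA (purple) lies left of 0 for Klf4, Klf5, Tfcp2l1, Nr0b1 and Zfp42.

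Among the parthenogenetic lines, FpB6D2 and OpB6D2, which share a strain and differ in the source of the oocyte, were close. Tcl1 was called higher in FpB6D2 and 0 members lower, where 1.31% and 2.44% of all genes were called. Tbx3 was 1.95-fold higher in FpB6D2 (0.96 ± 0.11, limma adjusted p = 7.2e-06), under the fold minimum. FpB6D2 and FpB6CBA, which share the source of the oocyte and differ in strain, were further apart. Klf4, Tbx3, Nr0b1 and Tcl1 were called lower in FpB6CBA and 0 members higher, where 5.14% of all genes were called lower and 6.03% higher. Klf4, Tbx3 and Nr0b1 were also called lower in FpB6CBA than in OpB6D2, and 0 members higher (4.97% and 5.05% of all genes). The median difference of FpB6CBA was -0.91 from FpB6D2 and -0.67 from OpB6D2.

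R1 set against the parthenogenetic lines was called lower in 0 genes, and the number called higher depended on the line. Against OpB6D2 these were Tcl1 and Zfp42 (5.31% of all genes were called higher and 4.94% lower), and against FpB6D2 Zfp42 alone (7.58% and 5.74%). Smaller differences past the adjusted p went both ways. In R1 against FpB6D2, Klf4 (-0.31), Klf5 (-0.26), Tbx3 (-0.6), Prdm14 (-0.59), Nr0b1 (-0.92) and Tcl1 (-0.3) were lower. Klf2 (0.35) and Tfcp2l1 (0.68) were higher. Against OpB6D2, Klf4 (-0.17), Prdm14 (-0.76) and Nr0b1 (-0.49) were lower, and Klf2 (0.63), Esrrb (0.18), Tfcp2l1 (0.72) and Tbx3 (0.37) higher. The median over the 10 genes was -0.28 from FpB6D2 and 0.27 from OpB6D2. Against FpB6CBA, 6 genes (Klf2, Klf4, Tfcp2l1, Tbx3, Nr0b1 and Zfp42) were called higher, where 9.67% of all genes were called higher and 8.55% lower. The median over the 10 genes there was 1.33.

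No member was called by mode of origin. With the line as the replicate, a limma fit on the 5 line means called 0 of the 10 genes between the 3 parthenogenetic and the 2 fertilised lines, and 0 of 12813 genes (0% of all genes; 606 had an unadjusted p under 0.05, none of them a member). Prdm14 was highest on the parthenogenetic side (7.82 against 6.59, difference 1.24 ± 0.59 SE, adjusted p = 0.92). Zfp42 was highest on the fertilised side (-1.39 ± 0.81, adjusted p = 0.92). For no member did all lines of one origin lie above those of the other. Exact two-sided permutation tests over the lines gave p from 0.2 to 1, and the smallest p this design can give is 0.1.

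More than 1 probe set was listed for 5 of the 10 genes. Both Klf4 probe sets gave the same calls in all 10 comparisons. For Tbx3, the probe set 1437479_x_at followed the main one, 1448029_at, with line means from 4.60 in NmB6D2 to 8.08 in R1. It put R1 and FpB6D2 level (0.12 ± 0.08, limma adjusted p = 0.2), where the main probe set put FpB6D2 ahead. The dimmer probe set 1445757_at called FpB6D2 above NmB6D2 (1.69 ± 0.10) and gave 0.54 to 0.72 for the other lines. It also called R1 lower than FpB6D2 (-1.02, limma adjusted p = 5.5e-07), a pair that the main probe set did not call. The probe set 1439567_at stayed between 3.53 and 3.86 in all lines, near the filter of 3.864, and 1444594_at lay below it.

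The other Esrrb probe sets spread less than the main one over the lines (6.71 to 7.15 and 8.04 to 8.54 in line means). They did not separate its high from its low lines. On 1422986_at R1 overlapped NmB6D2 (0.18 ± 0.11, limma adjusted p = 0.18). On 1441921_x_at FpB6CBA overlapped OpB6D2 (-0.15 ± 0.1, limma adjusted p = 0.24). The second Klf5 probe set that passed the filter was dim, at 4.8 to 5.39, and the third did not pass. Of the 3 Tfcp2l1 probe sets only 1418091_at passed, and the others lay between 2.22 and 2.89 on all arrays. Klf2, Prdm14, Nr0b1, Tcl1 and Zfp42 rest on a single probe set each.

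**Figure D4:**
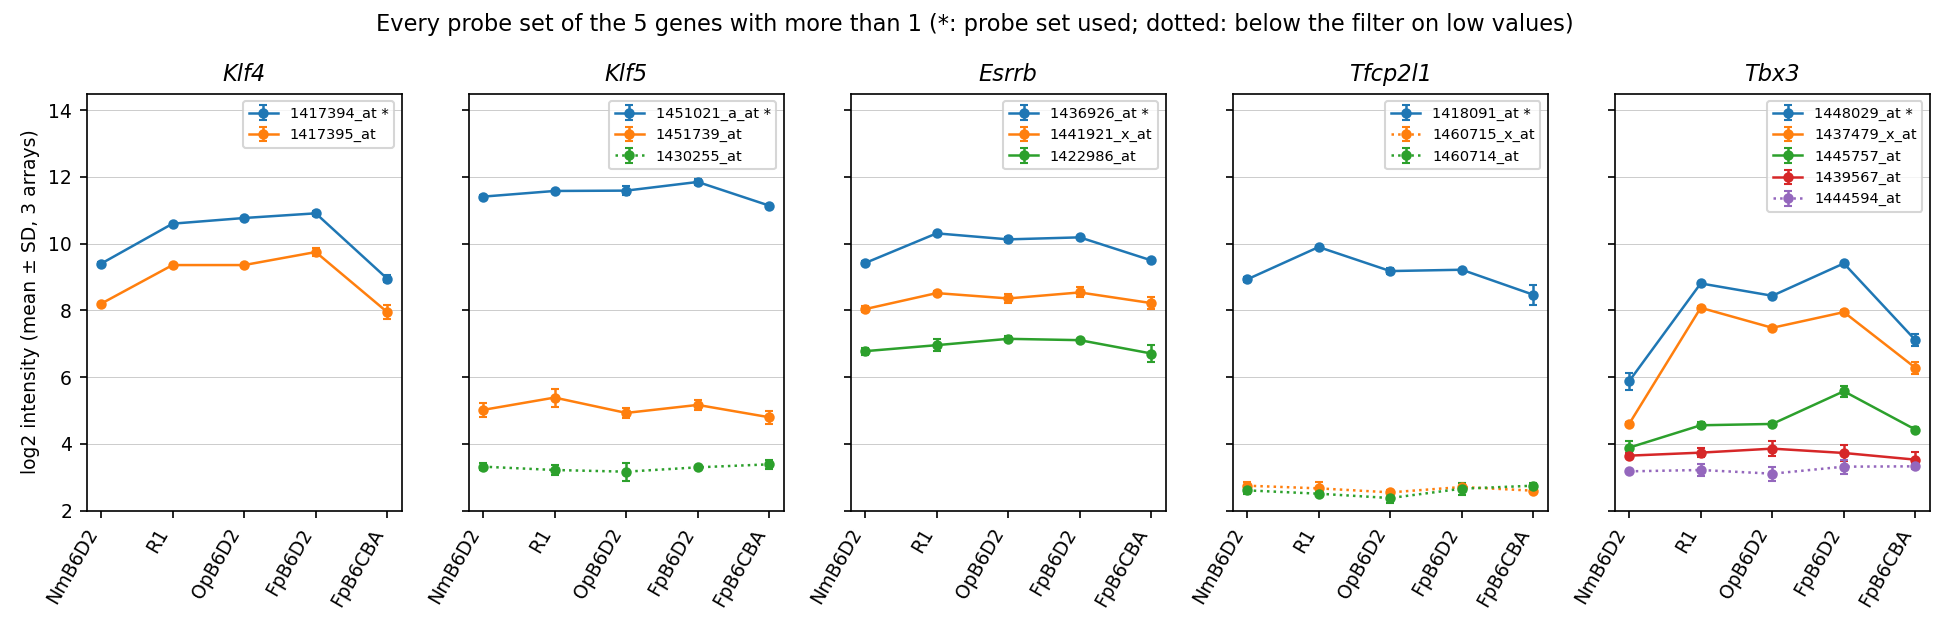
Log2 intensity (mean ± SD of 3 arrays, y axis) of every probe set of Klf4, Klf5, Esrrb, Tfcp2l1 and Tbx3 across the 5 ES lines (x axis); an asterisk marks the probe set used, and dotted lines mark probe sets below the filter on low values. The brightest 2 Tbx3 probe sets rise together above NmB6D2, and 1439567_at stays between 3.53 and 3.86.

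Likeness between profiles was measured as the root mean square difference of the 5 line means, each gene centred on its own mean. The profiles were not scaled, so genes with a wide range can give larger values whatever their order of lines. Among the 10 genes the closest were Klf2 and Esrrb (0.17), Klf2 and Tfcp2l1 (0.21), and Klf4 and Nr0b1 (0.25), and the farthest were Prdm14 and Zfp42 (1.35). Of the other genes tested, clone and predicted-gene names left out, the closest to Klf2 was Gnb4 (0.05) and to Tfcp2l1 Rrs1 (0.03). For Klf4 it was D16Ertd472e (0.06), followed by Kirrel (0.10). The closest to Nr0b1 were Nkrf (0.10) and Taz (0.14), which are X-linked too. Serpinb2 (0.24) was closest to Tbx3, Manba (0.18) to Prdm14, and Ccn4 (0.22), Il11 and Fzd1 (both 0.24) to Zfp42. Tcl1, the gene with the widest range, had the loosest matches, Fhod3 (0.39) and Jam2 (0.53). These are descriptions over 5 lines.

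Other genes of the naive network were taken from a list of 23, of which 22 were tested. In FpB6D2, 6 were called higher than in NmB6D2 and 0 lower (median 0.48), and in OpB6D2 3 higher and 0 lower (median 0.43). In R1, 3 were higher and 5 lower, and in FpB6CBA 2 higher and 2 lower. These counts depend on the probe sets. With probe sets averaged, 6 were higher and 1 lower (Dppa2) in FpB6D2, and 1 higher (Jam2) and 4 lower in R1. Without probe sets marked as matching several transcripts, 5 were higher and 1 lower (again Dppa2) in FpB6D2. Nanog, the homeobox factor at the centre of the network, ran from 9.81 in FpB6CBA and 10.43 in NmB6D2 to 11.29 in OpB6D2 and 11.39 in FpB6D2. Its order of lines, from FpB6D2 over OpB6D2, R1 and NmB6D2 down to FpB6CBA, was that of the means of Klf4, Klf5 and Nr0b1. Gbx2, a homeobox gene downstream of STAT3, was 5.57 in FpB6CBA and 8.04 to 8.93 in the other lines. Dppa3 (Stella) was 4.81 in R1 and 7.40 to 8.01 elsewhere. Jam2, an adhesion molecule, was lowest in NmB6D2 (7.44) and highest in FpB6D2 (10.76), as Tcl1 was.

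Of the other Krüppel-like factors, 12 of 14 were tested. Klf15 was called higher than in NmB6D2 in all 4 lines, from 4.61 in NmB6D2 to 7.29 in R1, and Klf13 in R1 (6.91 to 8.28); none was called lower than in NmB6D2. Klf13 fell under 2-fold when its probe sets were averaged (0.75).

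The signals that feed the network were covered by short lists, whose counts of calls against NmB6D2 are read beside the shares of all genes given above. Of 8 LIF-STAT3 genes, Jak2 was called higher in R1 than in NmB6D2 (6.86 against 5.06) and Bcl3 higher in FpB6D2 (8.91 against 7.78). Stat3 itself ran from 7.77 in FpB6D2 to 8.70 in R1 and was not called against NmB6D2. Of 7 Wnt-GSK3 genes tested, Axin2, a target of Wnt signalling, was called higher in R1 (7.80 against 5.78). Of 9 PI3K-AKT genes tested, 0 were called against NmB6D2 in any line, including Mtcp1, the relative of Tcl1 (4.96 to 6.06).

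Among 11 FGF-ERK genes tested, 3 were called lower in FpB6CBA than in NmB6D2 and 0 higher. They were Etv5 (9.53 against 10.54), a factor induced by ERK, and Spry4 (5.76 against 7.23) and Dusp6 (7.47 against 9.19), feedback inhibitors that are themselves induced by ERK. Dusp6 was also called lower in FpB6D2 (7.72). In R1, Spry4 was called higher (8.48), and Fgfr2 (4.62 against 5.84) and Etv4 (7.73 against 8.88) were called lower. With the probe sets of a gene averaged, the calls against NmB6D2 in this list were those of Dusp6 alone. Of 6 partners and repressed genes of Prdm14, 3 were called lower in R1, 2 in FpB6D2, 2 in FpB6CBA and 0 in OpB6D2, and none higher. Without probe sets marked as matching several transcripts, 3 of the 6 remained to be tested, and Dnmt3a was the sole call in each of R1, FpB6D2 and FpB6CBA. With probe sets averaged, 2 were called lower in R1 (Dnmt3a and Dnmt3b), without Fgfr2. The de novo methyltransferase genes Dnmt3a (9.04) and Dnmt3b (10.68) had their highest means in NmB6D2, where Prdm14 was lowest. The rest of this list had its highest means in other lines. These were Dnmt3l in FpB6CBA (11.74), Fgfr1 in R1 (9.07), Fgfr2 in FpB6D2 (5.94) and Cbfa2t2 in OpB6D2 (8.66). OpB6D2, where Prdm14 was highest, had Dnmt3a at 9.01.

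Genes of the primed epiblast, the later state, were mixed: of 15 tested, 5 were called higher and 3 lower in R1 than in NmB6D2, 2 higher and 3 lower in FpB6CBA, 0 higher and 4 lower in FpB6D2, and 1 each way in OpB6D2. Some of these calls rest on low values. Fgf5, Sall2 and Foxa2, called higher in R1 (4.81, 4.89 and 4.72), lay below the filter in NmB6D2 (3.73, 3.54 and 3.5). Foxa2 is also counted among the primitive endoderm markers below. Cdh2 was 8.69 in R1, and in FpB6CBA its mean of 3.77 lay below the filter.

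Markers of other cell types differed among the lines beside these genes. A list's summed level is given as the log2 of its summed linear intensities on an array. Of 10 primitive endoderm markers, 7 were called higher in FpB6CBA than in NmB6D2 and 0 lower (among them Dab2, 9 against 7.02, and Lama1, 9.21 against 6.75). In R1, 5 were called higher, among them Gata4 (7.4 against 4.51), and Dab2 lower (5.82). Gata4 and Pdgfra had their highest mean in R1 and Sox7 in FpB6D2 (6.58). The summed level of the list was 11.71 to 12.05 on the FpB6CBA arrays and 9.67 to 10.37 on the others, and Foxa2 was below the filter in NmB6D2, OpB6D2 and FpB6D2. Of 13 fibroblast markers tested, 8 were called higher in R1 than in NmB6D2 and 0 lower. Against NmB6D2, 4 were also called higher in OpB6D2, 3 in FpB6D2 and 2 in FpB6CBA, and 0 lower. In R1, Thy1, S100a4 and Prrx1 went the other way. They had their lowest mean there (5.95, 6.85 and 5.62) and were called lower than in OpB6D2. Dcn was highest in FpB6CBA (5.97). The summed level was 13.65 to 13.72 in R1, 12.61 to 13.01 in OpB6D2 and 12.29 to 12.38 in FpB6D2. It was 12.12 to 12.44 in FpB6CBA and lowest in NmB6D2, at 11.84 to 11.96. Lum was below the filter in all 5 lines.

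Trophectoderm markers were summed to 12.54 to 12.66 in NmB6D2, 12.33 to 12.5 in R1 and 12.14 to 12.39 in FpB6CBA. They were lower in FpB6D2 (10.86 to 10.93) and OpB6D2 (10.03 to 10.21), and 5 of 11 (Elf5, Krt7, Krt8, Krt18 and Hand1) were called lower in each of these lines than in NmB6D2. Tead4 was called higher in FpB6D2 (6.84 against 5.22). In R1, Elf5, Krt7 and Hand1 were called lower than in NmB6D2 and Eomes higher (10.08 against 7.49), while Krt8 (11.05) and Krt18 (10.88), the brightest of the list, were not called. In FpB6CBA, Elf5 and Hand1 were called lower and Ascl2 higher. Elf5 was above the filter in NmB6D2 alone (6.95). The ES cell markers summed to 12.79 to 12.88 in NmB6D2 and 12.70 to 12.77 in FpB6CBA, and to 13.24 to 13.41 in the other 3 lines. NmB6D2 and FpB6CBA were thus the lines with the lower level of the ES cell markers. They also had the lowest and next-lowest means, in either order, of every member except Tcl1 and Zfp42. Tfcp2l1 in NmB6D2 was not below OpB6D2 past the threshold (limma adjusted p = 0.078), nor Prdm14 in FpB6CBA below R1 (0.058). The part of these markers in the differences of the 10 genes was not tested.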

How the data were processed

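The deposited values are log2 intensities of 45101 probe sets on 15 arrays. RMA and affy are named as the authors' tools in the submitters' processing notes, without versions. The log base was inferred from the range of 1.99 to 13.96. Nothing was normalised again. Among the probe sets of a gene that carry 1 symbol, the brightest on average was used (18193 genes). The filter on low values asked for 3 or more arrays at or above 3.864, which is the median over the whole table (12813 genes passed). Line means were fitted over all 15 arrays with limma 3.58.1 in R 4.3.3, which was tested on simulated data. The members and gene lists were chosen with earlier results of these data known. Named genes are all members, up to 4 genes per list with the widest range of line means, and the closest profiles to members whose range reached 1 unit (3 per member examined, clone names left out), beside genes of the lists called in a comparison. Alternatives covered filters, probe set choice, normalisation, variance model, weights, pairing, threshold and each array or line left out. Replicate numbers, given for 13 arrays, did not pair the samples: deviations of same-numbered arrays correlated at -0.18 to 0.13.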

Additional observations from a re-analysis of the deposited data

How the results depend on the processing

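Of the 36 called differences, 32 were called under every alternative planned. The other 4 were lost when a gene's probe sets were averaged: Tbx3 in FpB6CBA against NmB6D2 (0.69), against OpB6D2 (-0.57) and in R1 against FpB6CBA (0.75), and Tfcp2l1 in R1 against FpB6CBA (0.42); this average takes in probe sets below the filter. In an added fit across all probe sets, chosen after seeing the data, the dim Tbx3 probe set 1439567_at turned FpB6CBA against NmB6D2 to -0.12 (adjusted p = 0.52). Without a fold minimum, 88 of the 100 combinations of a member and a pair of lines passed the adjusted p. The genes called, of 12813, then rose to between 6370 and 9017. Against NmB6D2, 10 members passed in FpB6D2 (7729 of all genes), 8 in FpB6CBA (6444) and 10 in R1 (8058). Against OpB6D2, 6 passed in FpB6D2 (6663), 10 in FpB6CBA (8037) and 9 in R1 (7608). Against FpB6D2, 10 passed in FpB6CBA (7725) and 9 in R1 (8511). With the replicate block, 2 members instead of 1 were called in FpB6D2 against OpB6D2 (Tbx3, 1.12), and the replicate numbers did not pair the samples.

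Leaving out each array in turn left the number of members called as it was in 9 comparisons. It was 3 to 4 in FpB6CBA against OpB6D2, where Prdm14 was called without OpB6D2 replicate 4 (-1.08) or FpB6CBA replicate 2 (-1.05), under median centring (-1.01) and with the block (-1.05). Averaging probe sets lowered the genes called in FpB6D2 against OpB6D2 from 480 to 299. Over the 10 comparisons it also lowered the calls in the FGF-ERK list from 24 to 12 and among the other Krüppel-like factors from 14 to 9. Without probe sets marked as matching several transcripts, the calls in the Prdm14 list went from 17 to 8, with fewer of its genes tested, and Klf3 was called against NmB6D2 in all 4 lines, lower in FpB6CBA and higher in the others. The 1 call of the PI3K-AKT list, Mtcp1 in R1 against OpB6D2, was lost under both. Array weights were not run for the comparison by mode of origin. With 3 arrays a line, precision is limited by their number, and detection calls were not used here, so low levels rest on the filter alone.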
